A study of Mus musculus with 24 samples.

Results

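ADAMTS proteases are secreted metalloproteinases that carry thrombospondin repeats, and 10 of their genes were followed here: Adamts1, Adamts2, Adamts4, Adamts5, Adamts6, Adamts9, Adamts10, Adamts12, Adamts15 and Adamts17. They are 10 of the 47480 rows of the gene table, and 9 other ADAMTS protease symbols in that table were not on the list. The list was selected on the measured level of Adamts17, which was lower with the compound KL001 than with its vehicle, so the KL001 differences of all 10 genes are given as a description without a test. The differences with Dexa and with the siCop1 small interfering RNA did not define that choice and were tested. They use the same libraries, and the members were chosen with earlier results of these data known. The p-values of Adamts17 are therefore not independent of the choice. Of the 10 genes, 9 passed the filter on low counts (14772 genes passed in all), each with at least 14 counts in every library, and Adamts15 did not.

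RNA came from wild-type mouse embryonic fibroblasts, cells that make and remodel connective tissue matrix, in 24 RNA-seq libraries. The 8 groups of 3 libraries cross the small interfering RNA siCTRL or siCop1, the vehicle DMSO or KL001 (a small molecule known to stabilise cryptochromes, repressors of the circadian clock), and culture without or with the agent that the labels call Dexa. The series title concerns the ubiquitin ligase that contains Cop1 and its inhibition by cryptochromes. The sources used here give no doses, exposure times, embryo ages or siRNA sequences, and the labels do not say whether the 3 replicates came from separate cultures, so p-values measure only the spread between these libraries.

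Many ADAMTS enzymes, though not all, are made as inactive precursors that furin-like convertases cut. Their thrombospondin repeats help to hold them in the matrix, where TIMP3 is their main tissue inhibitor. The family falls into branches by substrate. Adamts1, Adamts4, Adamts5, Adamts9 and Adamts15 cut the large proteoglycans versican and aggrecan, Adamts2 removes the amino-terminal propeptide of fibrillar collagens, Adamts12 can cut cartilage oligomeric matrix protein, and Adamts6, Adamts10 and Adamts17 are tied to fibrillin microfibrils.

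The catalytic zinc of these enzymes is held by histidines in a short stretch that all 10 genes share, and it is shown because it is the feature that makes the list 1 enzyme class. The coding bases of that stretch, read 5′ to 3′ from the longest open reading frame of the GENCODE vM21 transcripts, are printed with the codons of the 3 zinc-binding histidines in capitals.
Adamts1: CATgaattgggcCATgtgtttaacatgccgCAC
Adamts4: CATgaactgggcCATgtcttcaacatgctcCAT
Adamts9: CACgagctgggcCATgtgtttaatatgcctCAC
Adamts15: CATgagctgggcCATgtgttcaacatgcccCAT
Adamts5: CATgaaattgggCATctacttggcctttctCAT
Adamts2: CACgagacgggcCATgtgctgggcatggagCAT
Adamts12: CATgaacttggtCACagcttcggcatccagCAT
Adamts6: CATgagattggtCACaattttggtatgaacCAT
Adamts10: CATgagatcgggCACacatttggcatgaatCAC
Adamts17: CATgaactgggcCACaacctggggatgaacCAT
The eighth codon of the window is aac or aat in Adamts1, Adamts4, Adamts9 and Adamts15 and begins with gg in the 6 other genes. Adamts5 shares a substrate class with the first 4 and carries the gg codon.

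Adamts1 and Adamts5 lie next to each other on chromosome 16, at chr16:85793827-85803113 and chr16:85858157-85901125 of GRCm38.p6, with no protein-coding gene between them in RefSeq. Adamts17 spans 313473 bases at chr7:66839699-67153171, between Cers3 and Lysmd4. Promoter sequence from RefSeq (GRCm38.p6) was matched for 5 of the 10 genes, Adamts1, Adamts2, Adamts9, Adamts12 and Adamts17. The promoter start of Adamts17 lies inside the gene interval given above, so the last of its bases printed below overlap that interval. The Adamts9 window, chr6:92943485-92943784, lies inside the Adamts9 interval, chr6:92772699-92944450. Distances are counted from the promoter start. The 250 bases before the start are printed for the pair that rose with Dexa in the tests below, Adamts1 (chr16:85803114-85803363, minus strand) and Adamts17 (chr7:66839485-66839734, plus strand), with a TATAAA match in capitals in the first and a CACGTG match in the second.
Adamts1: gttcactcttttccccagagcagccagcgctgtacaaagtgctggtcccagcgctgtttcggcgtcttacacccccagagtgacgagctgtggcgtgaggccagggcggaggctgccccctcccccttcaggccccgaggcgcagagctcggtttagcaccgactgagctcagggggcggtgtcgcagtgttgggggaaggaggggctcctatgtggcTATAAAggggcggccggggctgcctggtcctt
Adamts17: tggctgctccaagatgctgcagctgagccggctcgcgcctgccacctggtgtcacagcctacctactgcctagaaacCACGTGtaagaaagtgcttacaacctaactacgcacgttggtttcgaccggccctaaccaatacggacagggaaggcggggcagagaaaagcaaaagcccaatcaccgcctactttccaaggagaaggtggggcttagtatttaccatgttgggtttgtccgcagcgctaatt
For all motifs but TATAAA both strands were searched over the 300 bases from 250 before to 50 after each start. TATAAA was searched on the strand of the gene only, also for its share of all promoters. CACGTG, the canonical E-box, was found once in Adamts17, 173 bases before the start, and in none of the 4 other promoters, and 7.15% of the 32851 mouse promoters of that length hold it. TATAAA was found once in Adamts1, 32 bases before the start, and 8.32% of promoters hold it. No match to the glucocorticoid response element (AGAACA, any 3 bases, TGTTCT; 0.00913% of promoters), its first part AGAACA (19%), the AP-1 motif TGACTCA (5.2%) or the ETS motif CCGGAA (14.9%) lay in these 5 windows, and AGAACA is contained in the full element.

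Library totals ran from 21409988 to 27875023 counts (median 25337292), no library was identical to another, and replicates differed by more than sampling noise. Values are CPM, the read counts of a gene scaled to a common library total after TMM (trimmed mean of M values) adjustment. Cop1, listed as Rfwd2, had 28.4 CPM in siCTRL and 4.81 CPM in siCop1 libraries with DMSO and without Dexa, a log2 difference of -2.56. Fkbp5, which glucocorticoids are known to induce, had 36.4 CPM without and 719 CPM with Dexa in the siCTRL DMSO libraries. The 10 fibroblast markers summed to 35020 to 50770 CPM in every library, led by the collagens, while Lum and Fap averaged under 1 CPM. The 7 heart muscle markers summed to over 5 CPM in 6 libraries, all siCTRL: all 3 with DMSO and without Dexa (17.3 to 60.6 CPM) and 1 in each of the 3 other siCTRL groups, up to 94.2 CPM. In siCop1 libraries they summed to at most 3.03 CPM. In bulk RNA, fewer cells of a type and less RNA per cell cannot be told apart.

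Adamts1 was the most abundant member by far once levels were scaled to CPM per kb of the longest transcript. Its level averaged 218 CPM per kb and ranged from 101.5 to 344.5 over the 24 libraries. It made up 60.7% to 85.5% of the summed CPM per kb of the 10 genes (median library 74.0%). Adamts10 came next with a mean of 23.1 CPM per kb (19.9 to 26.9), and its range did not meet that of Adamts5, with 14.7 (11.4 to 19.1). Adamts5 and Adamts2, with 11.7 CPM per kb (9.75 to 13.8), overlapped. Adamts12 (5.75), Adamts6 (5.04), Adamts4 (3.55) and Adamts9 (2.01 CPM per kb) followed, each overlapping its neighbour in this order. Adamts17 had 0.248 CPM per kb (0.0815 to 0.570), and Adamts15, with 0.0244 (0 to 0.0874), was the lowest. Of the 9 ADAMTS genes off the list, Adamts13 and Adamts19 had no counts in any of the 24 libraries, and Adamts14, at 4.29 CPM per kb, had the highest mean over all libraries. By group, Adamts7 was above Adamts14 in the 4 siCop1 groups, for example 5.66 against 3.83 CPM per kb with DMSO and without Dexa, and Adamts20 (4.37) and Adamts14 (4.34) were close in siCTRL KL001 with Dexa.

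**Figure D1:**
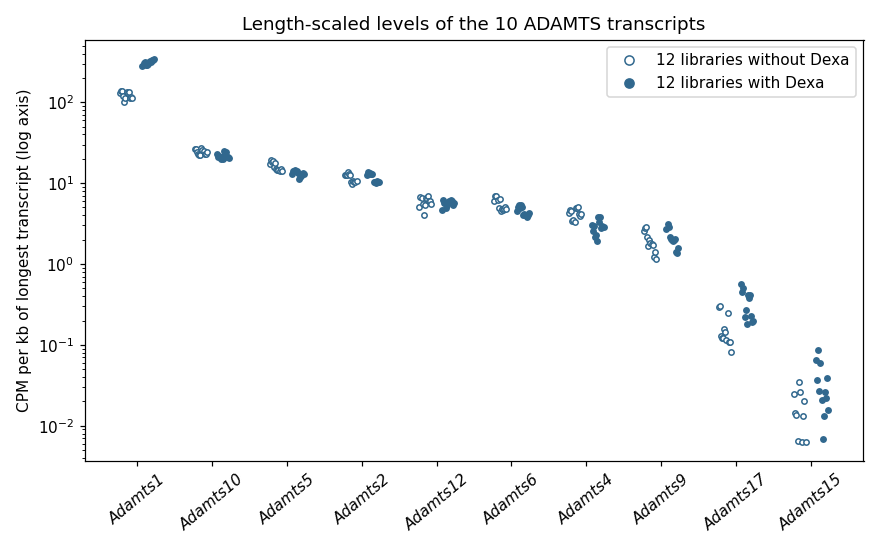
CPM per kb of the longest transcript (log axis) of the 10 ADAMTS genes, 1 point per library, with the 12 libraries without Dexa as open circles and the 12 with Dexa as filled circles. Adamts1 lies above the 9 others in every library and its open and filled points are apart, while Adamts15 is at the foot of the plot; its 2 libraries with 0 counts cannot be drawn on a log axis.

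With Dexa, Adamts1 rose in all 4 settings of siRNA and compound. In siCTRL DMSO it had 630.3, 682 and 675 CPM without and 1383, 1514 and 1522 CPM with Dexa. The matching values were 585, 496 and 554 against 1405, 1429 and 1450 CPM in siCTRL KL001, 653, 634 and 664 against 1556, 1596 and 1556 CPM in siCop1 DMSO, and 551, 562 and 546 against 1627, 1650 and 1683 CPM in siCop1 KL001. Every library with Dexa was thus above every library without it. The log2 fold change was 1.15 (SE 0.04, adjusted p = 2.18e-17) in siCTRL DMSO, 1.39 in siCTRL KL001, 1.27 in siCop1 DMSO and 1.58 (SE 0.04, adjusted p = 3.03e-20) in siCop1 KL001, from 2.22-fold to 2.99-fold. All adjusted p-values come from the quasi-likelihood test of edgeR and are adjusted by Benjamini-Hochberg over all 14772 genes.

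Adamts17, at a far lower level, also rose with Dexa in all 4 settings. In siCTRL DMSO it had 1.88, 1.94 and 0.834 CPM without Dexa and 3.66, 2.90 and 3.27 CPM with it (52, 46 and 21 against 94, 66 and 82 counts). In siCop1 DMSO it had 0.932, 0.739 and 1.57 CPM without and 2.63, 2.47 and 2.63 CPM with Dexa. All 3 libraries with Dexa were above all 3 without it in both, and 1 library without Dexa lay apart from its replicates in each, low in siCTRL and high in siCop1. The log2 fold change was 1.08 (SE 0.22, adjusted p = 0.000369) in siCTRL DMSO and 1.26 (SE 0.24, adjusted p = 0.000162) in siCop1 DMSO. Under KL001 the levels were 0.777, 0.781 and 1.01 against 1.44, 1.71 and 1.15 CPM in siCTRL and 0.702, 0.695 and 0.523 against 1.47, 1.24 and 1.26 CPM in siCop1. The log2 fold change was 1.05 (SE 0.29, adjusted p = 0.00723) in siCop1 KL001 and 0.74 (SE 0.27, adjusted p = 0.0440) in siCTRL KL001. The last of these ended above the threshold with the replicate number as a block (adjusted p = 0.0542), with DESeq2 (0.0596), without replicate 1 or 2 of either siCTRL KL001 group (0.0917 to 0.183), and without the libraries with heart muscle markers (log2 0.54, adjusted p = 0.213).

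Among the other proteoglycan-cutting members, Adamts4 and Adamts5 fell. Adamts4 was lower with Dexa in all 4 settings, at 18.9, 20.3 and 19.9 CPM without and 13.4, 11.3 and 13.1 CPM with Dexa in siCTRL DMSO, and its log2 fold change there was -0.64 (SE 0.07, adjusted p = 5.73e-09). The fall was -0.69 in siCTRL KL001, -0.47 in siCop1 DMSO and -0.50 in siCop1 KL001. In each setting the 3 libraries with Dexa lay below the 3 without it. Adamts5, the neighbour of Adamts1 on chromosome 16, fell from 185, 206 and 196 CPM to 139, 154 and 154 CPM in siCTRL DMSO (log2 -0.40, SE 0.05, adjusted p = 2.44e-07). Its log2 fold change was -0.32 in siCTRL KL001, -0.29 in siCop1 DMSO and -0.14 (adjusted p = 0.0344) in siCop1 KL001, where the levels were 153, 162 and 154 against 141, 142 and 142 CPM. That last call was lost without replicate 2 or 3 of siCop1 KL001 without Dexa (adjusted p = 0.148 and 0.0549) and without any 1 of the 3 siCop1 KL001 libraries with Dexa (0.0777 to 0.0866). Adamts9 did not pass the test in any setting, with log2 fold changes from 0.08 to 0.19. In siCop1 DMSO (0.17, adjusted p = 0.143) it passed with length and GC offsets (adjusted p = 0.0391) and in a fit on the compared groups only (0.0331), and in siCop1 KL001 it passed without replicate 2 of the group without Dexa (0.27, adjusted p = 0.0458). Adamts15 was too low to test, with 4, 2 and 2 counts without and 10, 5 and 13 counts with Dexa in siCTRL DMSO, and 0 to 8 counts in each library of the other 6 groups.

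Among the fibrillin-associated members, Adamts6 and Adamts10 fell where Adamts17 rose. Adamts6 had 45.6, 53.5 and 53.8 CPM without and 34.4, 39.1 and 41.7 CPM with Dexa in siCTRL DMSO (log2 -0.41, SE 0.08, adjusted p = 0.000296). It also fell in siCop1 KL001 (-0.28, adjusted p = 0.0154), a call lost without replicate 2 of the group without Dexa (0.0606) or without replicate 1 or 2 of the group with it (0.0749 and 0.0519). It was not called in siCTRL KL001 (-0.20, adjusted p = 0.0718) or siCop1 DMSO (-0.21, adjusted p = 0.0770). In siCTRL KL001 it passed without replicate 2 of the group without Dexa (-0.31, adjusted p = 0.000642) and without the libraries with heart muscle markers (-0.35, adjusted p = 6.07e-05), and in siCop1 DMSO it passed with DESeq2 (adjusted p = 0.0465) and in a fit on the compared groups only (0.000271). Length and GC offsets passed it in both (0.000239 and 0.0124). Adamts10 had 108, 108 and 101 CPM without and 94.8, 86.3 and 89.4 CPM with Dexa in siCTRL DMSO (log2 -0.23, SE 0.04, adjusted p = 6.18e-05). It also fell in siCTRL KL001 (-0.15), siCop1 KL001 (-0.18) and siCop1 DMSO (-0.12, adjusted p = 0.0255), where leaving out replicate 1 or 2 without Dexa, or 2 or 3 with Dexa, ended the call (0.0578 to 0.173). In each of the 4 settings the Adamts10 libraries with Dexa lay below those without. Adamts2, the procollagen protease, and Adamts12 were not called in any of the 4 settings. Adamts2 differences lay within 0.04 of 0 on the log2 scale, and those of Adamts12 between -0.15 and 0.11. In siCop1 DMSO Adamts12 passed in a fit on the compared groups only (-0.12, adjusted p = 0.0165).

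In siCTRL DMSO, 6 of the 9 tested members changed with Dexa, 2 higher and 4 lower, when 26.8% of all tested genes were called (12.7% higher, 14.1% lower). The member median was -0.15 on the log2 scale and that of all tested genes -0.01. In siCTRL KL001, 5 changed (2 higher, 3 lower), against 26.8% of all genes (12.7% higher, 14% lower). In siCop1 DMSO, 5 changed (2 higher, 3 lower), against 23.7% (12% higher, 11.6% lower). In siCop1 KL001, 6 changed (2 higher, 4 lower), against 24.5% (12.1% higher, 12.4% lower). The 2 higher members were Adamts1 and Adamts17 each time. Chondrocyte and neural marker sums moved with Dexa as well, from 55.4 to 56.3 up to 76.0 to 79.6 CPM and from 277 to 305 up to 424 to 452 CPM in siCTRL DMSO. The chondrocyte and neural sums consist mostly of Sox9 and Map2, while Matn1, Col9a1 and Elavl3 averaged under 0.1 CPM. The fibroblast sum in siCTRL DMSO was 48050 to 50770 CPM without and 46630 to 47130 CPM with Dexa. It was also lower without overlap in siCop1 DMSO, and overlapped in both KL001 settings. The endothelial sum in siCTRL DMSO was 2.304 to 3.03 against 1.355 to 1.974 CPM. The heart muscle sum in siCTRL DMSO was 17.3 to 60.6 CPM without and 0.797 to 94.2 CPM with Dexa. All 3 libraries without Dexa were over 5 CPM, so this comparison could not be refitted without such libraries. The part of these marker sums in the member differences was not tested.

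**Figure D2:**
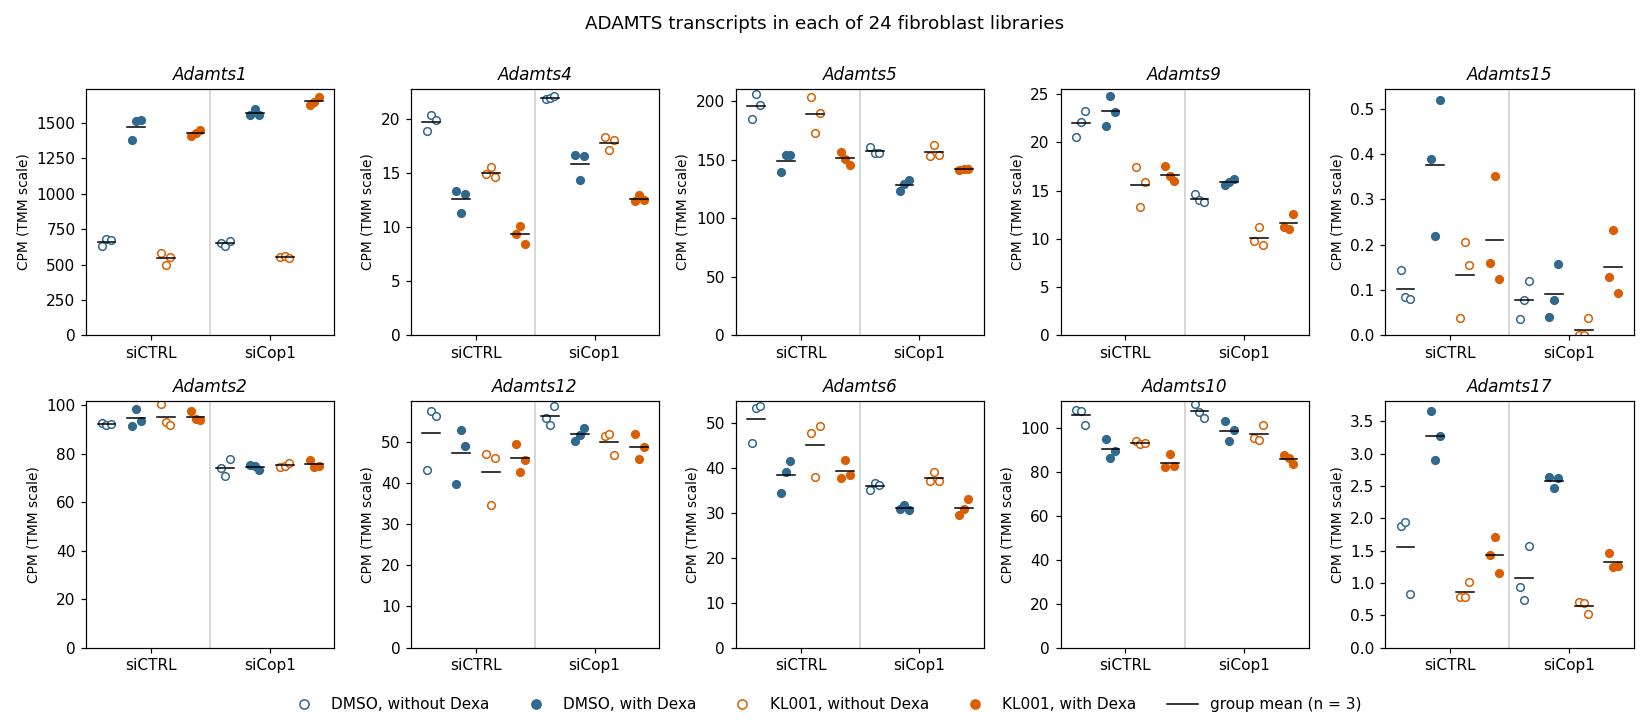
CPM on the TMM scale of each of the 10 ADAMTS genes (linear axes from 0, 1 panel a gene) in every library, with siCTRL groups left and siCop1 groups right of the grey line, DMSO in blue, KL001 in orange, filled circles with Dexa and a bar at the mean of 3 libraries. Adamts1 with Dexa lies between 1383 and 1683 CPM and without it between 496 and 682 CPM, and Adamts17 is highest in siCTRL DMSO with Dexa.

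Genes around these enzymes were taken from lists of the same pathway. With Dexa in siCTRL DMSO, 26.8% of all tested genes were called (12.7% higher, 14.1% lower). Of the 9 other ADAMTS proteases 4 were tested and all 4 changed. Adamts20, the closest relative of Adamts9, rose from 8.89 to 27.7 CPM (log2 1.64, SE 0.08, adjusted p = 5.38e-16), while Adamts16 (-0.77), Adamts7 (-0.49) and Adamts14 (-0.32) fell. Of 6 tested ADAMTS-like proteins, which lack the protease domain, Adamtsl2 (-0.78) and Adamtsl3 (-0.61) fell and Adamtsl4 (0.35) rose. Of 14 tested substrates and matrix partners, 1 rose and 5 fell. Versican (Vcan), a substrate of Adamts1, rose from 269 to 463 CPM (log2 0.78, SE 0.09, adjusted p = 7.68e-07). Thrombospondin 1 (Thbs1, -1.03), fibrillin 2 (Fbn2, -0.42) and fibrillin 1 (Fbn1, -0.19) were among those that fell, and the count of 6 was 3 without replicate 3 of siCTRL DMSO without Dexa. Of 12 tested inhibitors, activators, cofactors and clearance genes, 3 changed, near the share over all tested genes. The inhibitor Timp3 fell from 644 to 445 CPM (-0.53, adjusted p = 3.07e-09), and the co-receptor Sdc4 (0.43) and the convertase Furin (0.40) rose.

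With siCop1, Adamts9 and Adamts2 were lower in all 4 settings of compound and Dexa. Adamts9 had 20.6, 22.1 and 23.2 CPM in siCTRL and 14.6, 13.99 and 13.8 CPM in siCop1 with DMSO and without Dexa, and its log2 fold change was -0.63 (SE 0.08, adjusted p = 1.31e-07). With Dexa it had 21.7, 24.8 and 23.1 against 15.6, 15.9 and 16.2 CPM (-0.54). With KL001 the difference was -0.62 without Dexa and -0.53 with it, and no siCop1 library reached a siCTRL library of the same setting. Adamts2 had 92.7, 91.7 and 92.2 CPM in siCTRL and 74.2, 70.8 and 77.7 CPM in siCop1 (-0.31, SE 0.04, adjusted p = 1.35e-07). Its log2 fold change was -0.34 with DMSO and Dexa, -0.34 with KL001 alone and -0.33 with KL001 and Dexa. Over all 8 groups the 12 siCTRL libraries lay between 91.7 and 100.4 CPM and the 12 siCop1 libraries between 70.8 and 77.7 CPM.

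Adamts6 and Adamts5 were also lower with siCop1. Adamts6 had 45.6, 53.5 and 53.8 CPM in siCTRL and 35.1, 36.7 and 36.2 CPM in siCop1 with DMSO and without Dexa (-0.50, SE 0.08, adjusted p = 2.99e-05). Its difference was -0.30 with DMSO and Dexa (adjusted p = 0.00775), -0.26 with KL001 alone (0.0162) and -0.34 with KL001 and Dexa (0.00362). The first of these 3 was lost without siCTRL DMSO with Dexa replicate 3 (0.0535), and the second without replicate 1 or 3 of either group (0.0514 to 0.105) and in a fit on its own groups (0.0533). Adamts5 fell by 0.32 on the log2 scale with DMSO alone (SE 0.05, adjusted p = 1.03e-05), from 185, 206 and 196 to 160.5, 155 and 155 CPM. It fell by 0.21 with DMSO and Dexa and by 0.27 with KL001 alone, and was not called with KL001 and Dexa (-0.09, adjusted p = 0.176), where length and GC offsets gave -0.13 (adjusted p = 0.000399) and a fit on the compared groups only gave -0.09 (0.0263).

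Adamts4 had higher levels in siCop1 in all 4 settings. It had 13.4, 11.3 and 13.1 CPM in siCTRL and 16.7, 14.3 and 16.5 CPM in siCop1 with DMSO and Dexa (0.33, adjusted p = 0.000452). It rose with KL001 alone (0.25, adjusted p = 0.00425) and with KL001 and Dexa (0.44, adjusted p = 4.46e-05), from 9.34, 10.1 and 8.48 to 12.4, 13 and 12.5 CPM. With DMSO alone the difference of 0.16 missed the threshold (adjusted p = 0.0557) and passed it with relative log expression scaling (0.0388) and with length and GC offsets (0.00627), and in all 4 settings the 3 siCop1 libraries were above the 3 siCTRL libraries. Adamts1 rose with siCop1 under KL001 with Dexa (0.21, adjusted p = 0.000350), from 1405, 1429 and 1450 to 1627, 1650 and 1683 CPM. Its other 3 differences, from -0.03 to 0.09, were not called. With DMSO and Dexa it passed with length and GC offsets (0.07, adjusted p = 0.0379) and without the heart muscle library of that siCTRL group (0.11, adjusted p = 0.00876). Adamts10 was higher with DMSO and Dexa (0.13, adjusted p = 0.0173). That call was lost without siCTRL replicate 2 or 3 or siCop1 replicate 1 (0.0537 to 0.142) and without the heart muscle library of that siCTRL group (0.0687). With KL001 alone the Adamts10 difference of 0.06 was not called (adjusted p = 0.293), and length and GC offsets gave 0.12 (adjusted p = 0.00861). It was not called in the other 2 settings.

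Adamts12 and Adamts17 did not pass in any of the 4 siCop1 comparisons. Adamts12 differences lay between 0.08 and 0.23, and its siCTRL libraries were spread from 34.5 to 57.5 CPM. Without the heart muscle library of siCTRL DMSO with Dexa the difference in that setting was 0.23 (adjusted p = 0.0146). Adamts17 differences were -0.53 (SE 0.26, adjusted p = 0.130), -0.35, -0.42 and -0.12. In the first of these the levels were 1.88, 1.94 and 0.834 against 0.932, 0.739 and 1.57 CPM. Replicate 3 of each group stood apart from its 2 partners in opposite directions. Leaving out siCTRL replicate 3 gave -0.82 (adjusted p = 0.00883) and leaving out siCop1 replicate 3 gave -0.89 (adjusted p = 0.0181). Adamts15 had 1, 2 and 3 counts in siCop1 DMSO without Dexa and 1, 2 and 4 with Dexa.

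With DMSO and without Dexa, 4 of the 9 tested members changed with siCop1, all lower, when 29.4% of all tested genes were called (12.8% higher, 16.6% lower). The member median was -0.31 and that of all tested genes -0.01. With DMSO and Dexa 6 changed (2 higher, 4 lower), against 31.1% of all genes (14.4% higher, 16.7% lower). With KL001 alone 5 changed (1 higher, 4 lower), against 32.7% (14.5% higher, 18.2% lower). With KL001 and Dexa 5 changed (2 higher, 3 lower), against 30.1% (13.7% higher, 16.3% lower). The heart muscle markers summed to over 5 CPM in 6 siCTRL libraries and in no siCop1 library. Their sums did not overlap between the siRNAs with DMSO alone (17.3 to 60.6 against 1.05 to 3.03 CPM). In the last 3 settings they overlapped, for example 0.797 to 94.2 against 1.57 to 1.94 CPM with DMSO and Dexa. Without those 6 siCTRL libraries the member counts were 7, 5 and 5 in the last 3 settings, and the first setting kept no siCTRL library to compare. The shares of all tested genes called in these refits are not given here. Epithelial marker sums were 15.2 to 48.0 CPM in siCop1 DMSO with Dexa against 4.34 to 9.03 CPM in siCTRL DMSO with Dexa, with Krt13 at up to 30.6 CPM and Epcam at most 1.68 CPM in any library. Macrophage marker sums were 6.15 to 9.91 against 3.19 to 5.18 CPM with DMSO and Dexa and 7.53 to 15.1 against 2.55 to 4.35 CPM with KL001 and Dexa, where Cd68 and Lyz2 of 3 tested markers were higher, while Ptprc, Adgre1 and Aif1 averaged under 0.1 CPM. Fibroblast marker sums were lower in siCop1 in all 4 settings without overlap, for example 42270 to 43670 against 48050 to 50770 CPM with DMSO alone, where 2 of 10 markers were called lower. Of the 4 tested chondrocyte markers, 2 were called lower in 3 settings and 1 with KL001 alone. The part of these markers in the member differences was not tested.

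**Figure D3:**
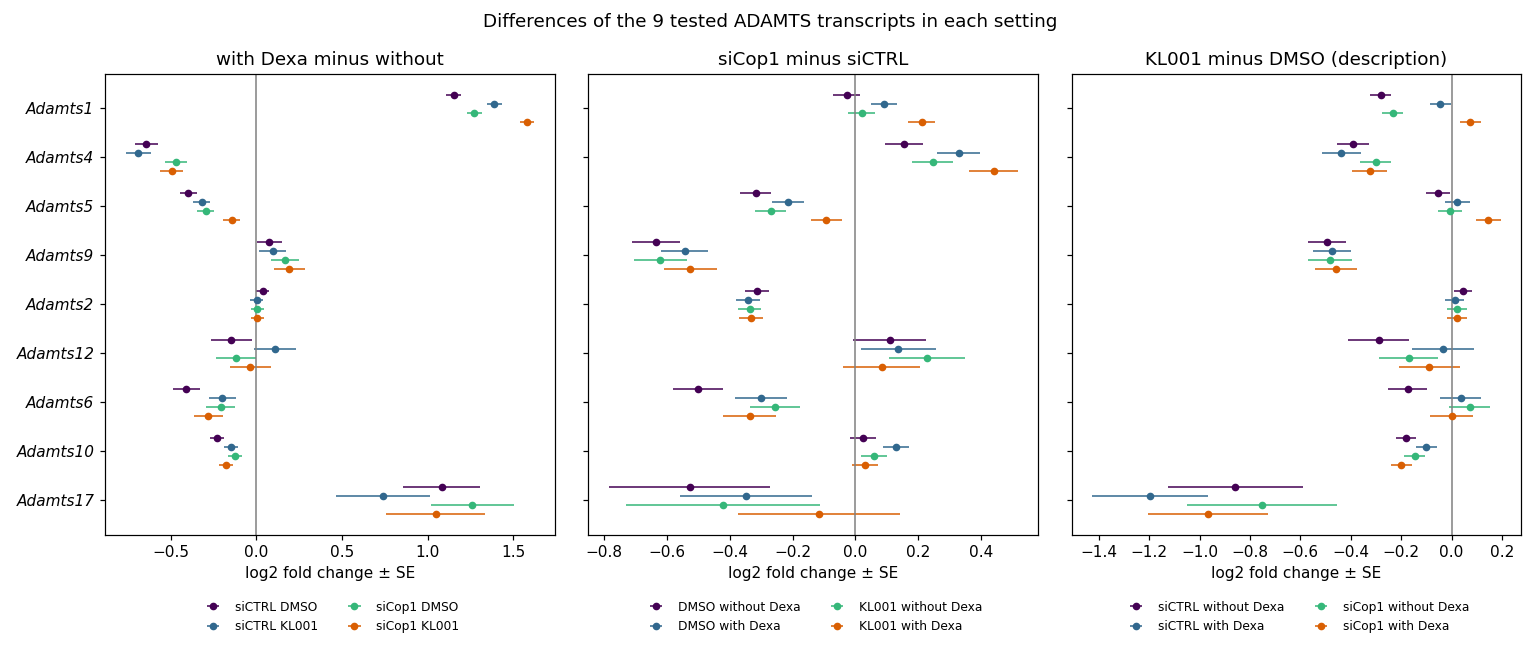
Log2 fold change ± SE of the 9 tested ADAMTS genes with Dexa (left), with siCop1 (middle) and with KL001 (right, description only), 1 colour for each of the 4 settings named below each panel. Adamts1 and Adamts17 lie right of 0 in all 4 Dexa settings, Adamts2 and Adamts9 lie left of 0 in all 4 siCop1 settings, and Adamts17 has the lowest KL001 value in each setting.

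The pathway lists in siCop1 with DMSO and without Dexa gave the following, when 29.4% of all tested genes were called (12.8% higher, 16.6% lower). Of the 4 tested other ADAMTS proteases, Adamts20 (3.68 against 8.89 CPM, log2 -1.27, SE 0.12, adjusted p = 5.69e-10) and Adamts14 (-0.64), a procollagen protease like Adamts2, fell, and Adamts7 (0.52), which with Adamts12 can cut cartilage oligomeric matrix protein, rose. Of 6 tested ADAMTS-like proteins 5 fell, led by Adamtsl1 (-0.78), Adamtsl2 (-0.50), Thsd4 (-0.50) and Adamtsl3 (-0.25), but 3 were called with DESeq2 or relative log expression scaling. The count was 2 without siCop1 replicate 1 and 3 without siCTRL replicate 1 or 3 or siCop1 replicate 2 or 3. Of 14 tested substrates and matrix partners 2 rose, aggrecan (Acan, 0.73) and versican (Vcan, 0.44), and 8 fell, with type II collagen (Col2a1, -0.68) and cartilage oligomeric matrix protein (Comp, -0.54) foremost. Of 12 tested inhibitors, activators, cofactors and clearance genes, 4 were called (1 higher, 3 lower), near the share over all tested genes. The convertase Pcsk6 (-0.86) and Timp3 (-0.74, 644 to 386 CPM) had the largest falls, the O-fucosyltransferase Pofut2 (-0.09) fell slightly and Timp2 (0.10) rose.

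Whether the Dexa difference itself differed between siCop1 and siCTRL was tested as an interaction. In DMSO 0 of the 9 members were called by edgeR, 0 had an unadjusted p under 0.05 and 0 were called by DESeq2, when 0.67% of all genes were called. In KL001 edgeR called 0 and DESeq2 0, when 0.562% of all genes were called by the adjusted p of edgeR. In that setting 2 members had an unadjusted p under 0.05, Adamts1 (term 0.19, adjusted p = 0.258) and Adamts5 (term 0.18, adjusted p = 0.465). The share of all genes under that unadjusted threshold is not given here, so the count of 2 is not set against a background. The Adamts1 term passed with no filter on low counts (0.17, adjusted p = 0.0403), with length and GC offsets (0.21, adjusted p = 0.00312), without replicate 2 of siCTRL KL001 without Dexa (0.25, adjusted p = 0.00418) and without the heart muscle libraries (0.25, adjusted p = 0.00453). The Adamts5 term passed with length and GC offsets (0.23, adjusted p = 0.000604).

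Under KL001, the contrast that led to the list, Adamts17 was lower than under DMSO in all 4 settings. Its means were 1.55 ± 0.620 against 0.855 ± 0.131 CPM (SD, n = 3) in siCTRL without Dexa, 3.27 ± 0.382 against 1.43 ± 0.280 CPM in siCTRL with Dexa, 1.08 ± 0.436 against 0.640 ± 0.102 CPM in siCop1 without Dexa and 2.58 ± 0.0935 against 1.32 ± 0.127 CPM in siCop1 with Dexa. The log2 differences were -0.86 (SE 0.27), -1.20 (SE 0.23), -0.75 (SE 0.30) and -0.96 (SE 0.24). In the first setting 1 DMSO library, at 0.834 CPM, lay within the range of the KL001 libraries, and in the other 3 the groups did not overlap. In siCop1 without Dexa the difference was -0.39 without DMSO replicate 3, the highest library of its group. With 14 to 94 counts a library, Adamts17 had the widest SE of the 9 members in all 4 KL001 comparisons.

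Adamts9 and Adamts4 also had lower values in every KL001 library than in every DMSO library of the same setting, a pattern that 9.51%, 13.9%, 11.5% and 12.4% of all tested genes had in siCTRL without and with Dexa and in siCop1 without and with Dexa. Adamts9 differed by -0.50, -0.48, -0.48 and -0.46 on the log2 scale, for example 20.6, 22.1 and 23.2 CPM against 17.4, 13.3 and 15.9 CPM in siCTRL without Dexa. Adamts4 differed by -0.39, -0.44, -0.30 and -0.33. Adamts10 had smaller differences, from -0.10 to -0.20. Adamts1 was lower without Dexa (-0.28 in siCTRL and -0.23 in siCop1), and with Dexa its values were -0.04 and 0.07. Adamts12 was below 0 in all 4 settings (-0.29, -0.03, -0.17 and -0.09), and only in siCop1 without Dexa did its groups not overlap. Adamts6 (-0.17 to 0.07) and Adamts5 (-0.05 to 0.15) had values on both sides of 0, and Adamts2 lay between 0.01 and 0.05. The fibroblast marker sum was lower with KL001 too, 40880 to 44890 CPM against 48050 to 50770 CPM in siCTRL without Dexa, and its part was not tested. The Dexa, siCop1 and KL001 comparisons share libraries, so their values for a gene are not independent of each other.

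Adamts17 was thus highest in siCTRL DMSO with Dexa (3.27 CPM), followed by siCop1 DMSO with Dexa (2.58 CPM), and lowest in siCop1 KL001 without Dexa (0.640 CPM). The ranges of the siCTRL and siCop1 DMSO groups with Dexa, 2.90 to 3.66 and 2.47 to 2.63 CPM, did not overlap. The siCop1 difference between them was not called by edgeR (log2 -0.35, adjusted p = 0.2225), and the share of all genes without overlap there is not given here. The next 3 groups, siCTRL DMSO without Dexa (1.55 CPM), siCTRL KL001 with Dexa (1.43 CPM) and siCop1 KL001 with Dexa (1.32 CPM), overlapped. siCop1 DMSO without Dexa (1.08 CPM) and siCTRL KL001 without Dexa (0.855 CPM) also overlapped. The genes whose log2 level followed it most closely over the 8 group means, among 11608 genes of at least 1 CPM, were Ccs (Pearson r = 0.99), Hacd3 (0.99), Vipas39 (0.98), Plagl1 (0.97) and Sec16b (0.97). Over the 24 libraries r was 0.58 for Ccs, 0.90 for Hacd3, 0.53 for Vipas39, 0.88 for Plagl1 and 0.91 for Sec16b, and all points share their libraries and scaling. The correlation does not measure the size of a change. Group means ran from 37.57 to 41 CPM for Ccs, 84.21 to 102.8 for Hacd3 and 50.33 to 54.2 for Vipas39. They ran from 38.06 to 66.45 CPM for Plagl1 and 16.93 to 22.36 for Sec16b, against 0.640 to 3.27 CPM for Adamts17. Among the members, Adamts4 and Adamts10 were the pair most alike over the 8 group means (r = 0.95), followed by Adamts5 and Adamts6 (0.93).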

How the data were processed

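The authors deposited raw counts by gene symbol for 24 libraries, and 0 columns were unused. Per the labels' protocols, RNA was isolated with an RNeasy kit and stranded TruSeq mRNA libraries were read as single 50-base reads on 3 HiSeq 2500 lanes. Per the submitters' processing notes, the tools were bcl2fastq 1.8.4, STAR 2.4.5a, featureCounts, Subread 1.4.6-p3, DESeq2 and Picard 1.126, with build GRCm38 (mm10). The sources used here do not give the annotation, the strand setting or the handling of reads shared between paralogs, and split reads between ADAMTS paralogs are possible. The normalized table was not used.

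Counts were filtered with filterByExpr (minimum count 10, minimum total 15), which left 14772 genes, scaled by TMM and fitted with edgeR 4.0.16 (R 4.3.3; robust quasi-likelihood) on all 24 libraries, without covariates, with 8 group means. The common coefficient of biological variation was 3.71%. Called means a two-sided Benjamini-Hochberg adjusted p below 0.05. There were 8 comparisons and 2 interaction terms. The fit was tested on simulated data. Standard errors derive from the log2 fold change and its F statistic. CPM per kb uses the longest GENCODE vM21 transcript. PCR copies were not told apart.

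Alternatives were relative log expression scaling, no filter, DESeq2 1.42.0, a replicate block, offsets for length and GC (14300 genes), a fit on the compared groups only and each library left out. A further one, chosen after seeing the data, left out libraries with over 5 CPM of heart muscle markers. It kept no library of siCTRL DMSO without Dexa, so no comparison with that group was refitted. Named genes are all 10 members in every comparison and, from each pathway list, up to 4 called genes of largest log2 change with Dexa in siCTRL DMSO or with siCop1 in DMSO without Dexa. The members, lists and motifs were chosen with earlier results of these data known.

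Replicate numbers come from the labels, which do not say what they share. Column names of the deposited counts share a stem across the Dexa and KL001 groups of the same siRNA and replicate number, and the meaning of the stem is not given. The replicate block gave each number a common effect in both siRNAs, so it did not model sharing within an siRNA alone. Deviations of same-numbered libraries correlated over 0.1 in 11 of 36 pairs (r from -0.29 to 0.46), and in all 3 pairs of 2 of 12 comparisons: Dexa in siCTRL KL001, and KL001 in siCTRL with Dexa.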

Additional observations from a re-analysis of the deposited data

Results flagged for a closer look

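Adamts1 had KL001 differences of opposite sign in the siCop1 cells. Without Dexa the log2 difference was -0.23 (SE 0.04), with all 3 KL001 libraries below all 3 DMSO libraries. That pattern was found in 11.5% of all tested genes. With Dexa the difference was small, 0.07 (SE 0.04), with all 3 KL001 libraries above all 3 DMSO libraries. The share of all genes with that pattern is not given here. In siCTRL cells both values were below 0, -0.28 without Dexa and -0.04 with Dexa, where the groups overlapped. The difference between the 2 siCop1 values was not tested, because KL001 was the contrast that led to the list.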

How the results depend on the processing

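The count of members changed with Dexa in siCop1 DMSO was 8 in a fit on its groups only (5 in the main analysis), and the count with a siCop1-by-Dexa term in KL001 (0) was 1 with no filter, 2 with length and GC offsets, 2 with offsets and the replicate block, and 1 without the heart muscle libraries. The other member counts stayed within 1.5 times. The shares of all tested genes called under the alternatives are not given here, so these member counts are not set against a background. With no filter, Adamts12 passed the test with Dexa in siCTRL DMSO (adjusted p = 0.0433) and with siCop1 in KL001 without Dexa (adjusted p = 3.82e-05). Leaving out 1 library gave 6 to 6, 4 to 5, 4 to 5 and 4 to 6 members changed with Dexa (siCTRL DMSO, siCTRL KL001, siCop1 DMSO, siCop1 KL001), 4 to 5, 4 to 6, 4 to 5 and 5 to 5 with siCop1 (DMSO, DMSO with Dexa, KL001, KL001 with Dexa), and 0 to 0 and 0 to 1 interaction terms (DMSO, KL001). The KL001 difference of Adamts17 ran from -1.15 to -0.68 and from -1.34 to -1.06 in siCTRL without and with Dexa, and from -0.96 to -0.39 and from -1.05 to -0.92 in siCop1. It was -1.42 in siCTRL with Dexa without the heart muscle libraries.

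The replicate block gave counts of 6, 4, 5 and 6 with Dexa, 4, 6, 5 and 5 with siCop1, and 0 and 0 interaction terms in the same order. Besides Adamts17 with Dexa in siCTRL KL001, it changed no call of a member.

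Signs turned only for differences that were not called. For Adamts2 with Dexa these were siCop1 DMSO (-7e-04 with relative log expression scaling, -3e-04 with no filter, -6e-04 with DESeq2), siCop1 KL001 (-0.0036 with no filter, -0.0023 with offsets, also with the block) and siCTRL KL001 (-0.0192 with offsets, also with the block, and -0.0024 without the heart muscle libraries). Adamts1 with siCop1 in KL001 gave -0.003 with offsets, -0.0032 with offsets and the block, and -0.0417 without the heart muscle libraries, which also gave 0.0253 for Adamts17 with siCop1 in KL001 with Dexa. With 1 library left out, Adamts2 with Dexa ran from -0.022 to 0.0433 (siCTRL KL001), -0.0265 to 0.0394 (siCop1 DMSO) and -0.0119 to 0.0174 (siCop1 KL001). Adamts9 ran from -0.0028 to 0.1865 and Adamts12 from -0.019 to 0.1857 with Dexa in siCTRL KL001, and Adamts12 from -0.0849 to 0.0106 in siCop1 KL001. With siCop1, Adamts12 (-0.0156 to 0.1832) and Adamts10 (-0.0071 to 0.0451) turned in DMSO, Adamts1 (-0.0429 to 0.0746) in KL001, and Adamts17 (-0.2512 to 0.0262) in KL001 with Dexa. The cause of these shifts was not tested. Depth limited Adamts15, with 86 counts in 24 libraries, and Adamts17, with 951.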
